A study of Homo sapiens with 38 samples.

Results

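CPA4 (NM_016352) encodes carboxypeptidase A4, a zinc enzyme that removes hydrophobic residues from the C-terminal end of proteins and peptides. It was 1 gene of the 12627 listed in these data, and it was chosen by its measured level, which after combined silencing of VPS4A and VPS4B stood far above that in the NT and siCTRL#1 controls. The libraries of those 4 conditions therefore chose the gene, and differences that use them are given as descriptions without a test. RNA from HCT116 cells, a human colorectal carcinoma line, was sequenced 72 h after transfection in 38 libraries of 9 conditions. NT cells were not transfected, siCTRL#1 and siCTRL#2 cells received non-targeting siRNA, and siVPS4A#1, siVPS4A#2, siVPS4B#1 and siVPS4B#2 cells received 1 siRNA against 1 paralog. In siVPS4A+B#1 the duplexes siVPS4A#2 and siVPS4B#1 were combined, and in siVPS4A+B#2 the duplexes siVPS4A#1 and siVPS4B#2. The siCTRL#1 control was used at 60 nM, combined silencing used 30 nM of each on-target duplex, and single silencing paired 30 nM of the on-target duplex with 30 nM of the non-targeting one. The labels state no dose for siCTRL#2 itself, and the study's methods give only a range for its non-targeting siRNAs. Each condition had 4 libraries, except siCTRL#1 and siVPS4A#1 with 5. All conditions share 1 cell line, transient transfection and 1 time point. The labels number the libraries by batch, and the study describes its replicates as biological.

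CPA4 belongs to the A/B subfamily of the M14 metallocarboxypeptidases, whose members are made as inactive proenzymes, secreted, and activated when a propeptide is cut off. CPA4 was first found as a transcript induced by histone deacetylase inhibitors in cancer cells and is blocked by the protein inhibitor latexin. VPS4A and VPS4B are AAA ATPases that take apart ESCRT-III filaments on endosomes and at the midbody, and each can largely stand in for the other.

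The gene lies on the plus strand at chr7:129932974-129964020 (GRCh37), and its main transcript, with 11 exons, starts at 129933001. The 250 bases before the RefSeq start were taken from the RefSeq promoter table of GRCh38.p14, and the same letters occur 1 time on chromosome 7 of GRCh37, at chr7:129932751-129933000 on the plus strand. They are shown because the data concern a large difference in this transcript, with each match to the AP-1 motif (the site of FOS and JUN dimers) in capitals.

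CPA4 promoter: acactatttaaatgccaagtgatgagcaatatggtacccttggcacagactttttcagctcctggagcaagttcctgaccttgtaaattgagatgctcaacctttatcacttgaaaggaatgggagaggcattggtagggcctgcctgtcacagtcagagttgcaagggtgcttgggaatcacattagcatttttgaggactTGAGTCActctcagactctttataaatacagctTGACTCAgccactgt

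The motif TGANTCA, searched on both strands, was found at 2 places, as TGAGTCA from 48 to 42 and as TGACTCA from 15 to 9 bases before the start. A TATA box match, TATAAA, lies between them, from 28 to 23 bases before the start, and overlaps a match on the other strand, TTTATA, from 30 to 25. The NF-kB consensus was not found in these letters. At least 1 AP-1 match was present in 6.60% of 27305 promoters of the same length and in 3.85% of the 10206 that belong to listed genes. At least 2 matches, as in CPA4, were present in 0.385% of all promoters and in 0.176% of those of listed genes, which is 18 genes. These matches describe the letters and were not tested for binding.

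The 37 libraries used held 5090666 to 11035293 reads over the listed genes, with a median of 7561496. The library labelled siVPS4A#1 replicate 2 held 669257 reads and went against its label. It had VPS4B at 1 read, or 1.62 reads per 1000000 (RPM), whereas the other siVPS4A#1 libraries averaged 26.1 RPM. Across 9197 genes the profile of this library correlated best with siVPS4A+B#1 (Pearson r = 0.666) and hardly with siVPS4A#1 (r = -0.098). It was left out, and values that rest on it are given with and without it. In the remaining libraries VPS4A averaged 249 ± 55.0 (SD, n = 4) RPM after TMM scaling in NT, 2.18 ± 0.895 (SD, n = 4) in siVPS4A#1 and 7.88 ± 2.22 (SD, n = 4) in siVPS4A#2. VPS4B averaged 22.2 ± 5.44 (SD, n = 4) in NT, 0.433 ± 0.335 (SD, n = 4) in siVPS4B#1 and 1.07 ± 0.361 (SD, n = 4) in siVPS4B#2. In combined silencing VPS4A was at 20.0 ± 10.6 (SD, n = 4) in siVPS4A+B#1 and 5.03 ± 1.96 (SD, n = 4) in siVPS4A+B#2, so the first pair left more VPS4A transcript than siVPS4A#2 did alone.

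CPA4 had its lowest level in NT cells. The values below are RPM in replicate order; 1 library's reads for CPA4 ranged from 22 to 2376, so every library lay above the floor of 3 reads. In NT the 4 libraries had 4.98, 2.61, 4.85 and 4.04, with a mean of 4.12 ± 1.09 (SD). The 5 siCTRL#1 libraries had 5.22, 6.86, 15.7, 4.34 and 7.57 (mean 7.95 ± 4.54, SD), and replicate 3 was the highest by a wide margin. After combined silencing, siVPS4A+B#1 had 150, 142, 259 and 348 (mean 225 ± 97.8, SD, n = 4). The siVPS4A+B#2 libraries had 212, 238, 216 and 200 (mean 217 ± 16.1, SD, n = 4). Every library of combined silencing lay above every library used of the other 7 conditions, and the second pair of siRNAs gave much closer replicates than the first, with an SD of 0.11 against 0.62 on the log2 scale.

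**Figure D1:**
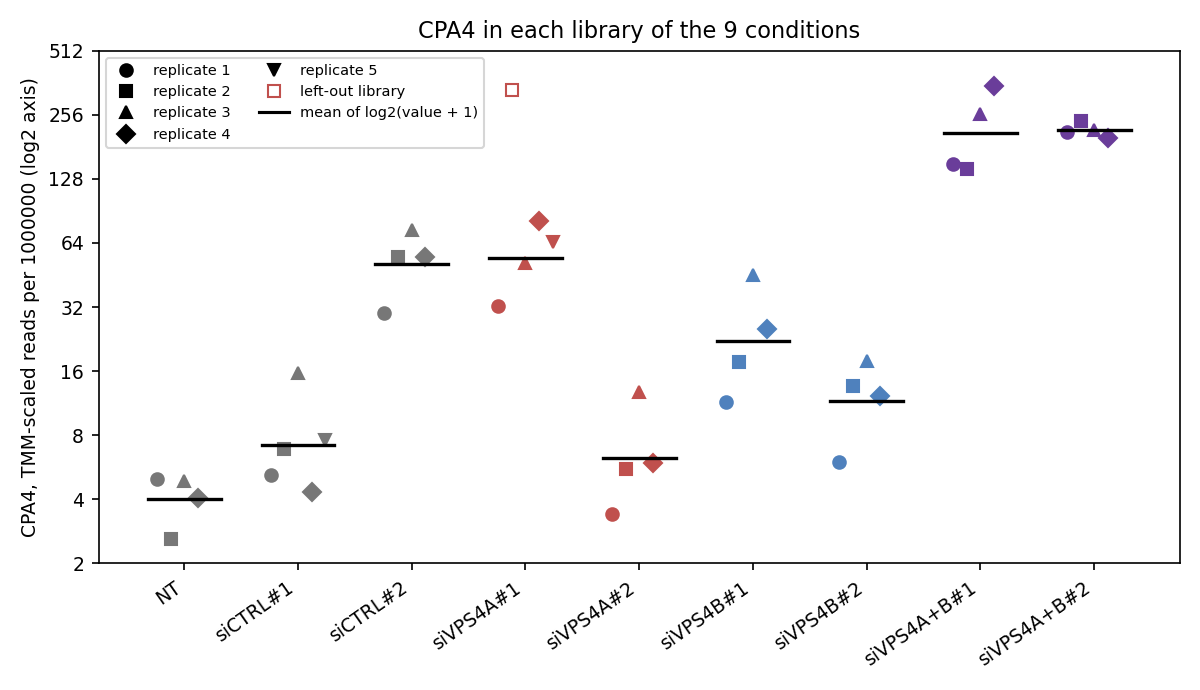
CPA4 level per library, in TMM-scaled reads per 1000000 on a log2 axis, in the 9 conditions; symbols mark the replicate number, black lines the mean of log2(value + 1), and the hollow square the library labelled siVPS4A#1 replicate 2, which was left out. The 8 libraries of combined silencing sit between 142 and 348, and the siCTRL#2 libraries lie between 30.1 and 73.6, above all NT and siCTRL#1 libraries.

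On the log2(RPM + 1) scale, fitted levels of siVPS4A+B#1 exceeded siCTRL#1 by 4.72 (SE 0.25) and NT by 5.39 (SE 0.26). For siVPS4A+B#2 the differences were 4.77 (SE 0.25) against siCTRL#1 and 5.44 (SE 0.26) against NT. The 2 combinations, made of different siRNA sequences, differed by 0.04, with a 95% interval from -0.48 to 0.56. These values chose the gene and carry no test. By the rule of at least 1.5-fold with a limma adjusted p under 0.05 in all 4 comparisons of combined silencing with NT and siCTRL#1, 3.96% of the listed genes were higher and 4.16% lower, 500 and 525 genes. Scaling by library totals instead of TMM gave 358 higher and 739 lower, so the balance of directions rests on the scaling. In bulk RNA a change in the share of cells that make a transcript and a change in the transcript per cell cannot be told apart.

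The second non-targeting siRNA also gave a high level of CPA4. The 4 siCTRL#2 libraries had 30.1, 55.3, 73.6 and 54.8 (mean 53.5 ± 17.8, SD). This mean was 13.0 times the NT mean and 24.2% of the mean of the 8 libraries of combined silencing. In each of the 4 replicates siCTRL#2 lay above NT, by 6.05 to 21.2 times, and above siCTRL#1, by 4.67 to 12.6 times. The fitted log2 difference was 3.37 (SE 0.26) from NT and 2.70 (SE 0.25) from siCTRL#1, given without a test because NT and siCTRL#1 chose the gene. In siCTRL#2 VPS4A stood at 233 ± 13.5 (SD, n = 4) and VPS4B at 31.8 ± 8.42 (SD, n = 4), so neither paralog was silenced there. Against siCTRL#2, combined silencing was higher by 2.02 (SE 0.26) and 2.06 (SE 0.26) on the log2 scale.

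Single silencing gave CPA4 levels that differed between siRNA sequences. The siVPS4A#1 libraries, replicates 1, 3, 4 and 5, had 32.4, 51.8, 81.3 and 65.0 (mean 57.6 ± 20.7, SD), close to the range of siCTRL#2. The siVPS4A#2 libraries had 3.40, 5.54, 12.8 and 5.89 (mean 6.90 ± 4.05, SD, n = 4), within the range of the NT and siCTRL#1 libraries. The siVPS4A#1 and siVPS4A#2 groups did not overlap, although both lost nearly all VPS4A transcript.

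The siVPS4B#1 libraries had 11.4, 17.7, 45.2 and 25.3 (mean 24.9 ± 14.7, SD, n = 4). The siVPS4B#2 libraries had 5.99, 13.6, 17.9 and 12.2 (mean 12.4 ± 4.92, SD, n = 4). These groups overlapped, but siVPS4B#1 was the higher in all 4 replicates, by 1.30 to 2.53 times. Replicate 3 was the highest in 5 of the 9 conditions and replicate 1 the lowest in 5, and the fit removed the mean level of each replicate number.

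The 6 comparisons among siCTRL#2 and the single silencing conditions compared only conditions that did not choose the gene, and were tested. Folds given for them, here and below, are of RPM + 1, which makes them smaller than folds of RPM at low levels. By edgeR on recovered reads the log2 difference was -2.99 for siVPS4A#2 against siCTRL#2 and 3.04 for siVPS4A#1 against siVPS4A#2. The limma fit itself took its spread and replicate terms from all 37 libraries, including those that chose the gene. Replicate 5 of siVPS4A#1 shared its number only with a siCTRL#1 library. With only the compared conditions in the fit, every call stayed the same. There the limma adjusted p was 1.38e-05 for siVPS4A#1 against siVPS4A#2 and 0.000943 for siVPS4B#1 against siVPS4B#2. CPA4 was lower in siVPS4A#2 than in siCTRL#2 by 7.19-fold, a log2 difference of -2.85 (SE 0.26; limma adjusted p = 2.50e-11), without overlap; 12.8% of listed genes were called lower in that comparison. In siVPS4B#2 it was lower than in siCTRL#2 by 4.12-fold (log2 -2.04, SE 0.26; limma adjusted p = 3.47e-08), again without overlap, where 16.0% of genes were called lower. In siVPS4B#1 it was lower by 2.25-fold (log2 -1.17, SE 0.26; limma adjusted p = 0.000363), with overlapping ranges and 17.4% of genes called lower. Each of these differences had the same sign in 4 of 4 same-numbered replicates. These falls are relative to siCTRL#2, where CPA4 was high. The study used NT and siCTRL#1 as controls for its downstream analysis, because these behaved consistently. Against NT the log2 differences, given without a test, were 0.53 (SE 0.26) for siVPS4A#2, 2.20 (SE 0.26) for siVPS4B#1 and 1.33 (SE 0.26) for siVPS4B#2. Against siCTRL#1 they were -0.14, 1.53 and 0.66 (SE 0.25 each). CPA4 in siVPS4A#1 was not shown to differ from siCTRL#2 (log2 0.01, SE 0.27, 95% interval from -0.53 to 0.56; limma adjusted p = 0.978), a comparison in which 21.4% of genes were called higher. The interval leaves room for a difference of this gene in either direction.

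The 2 siRNAs against the same paralog were then set against each other. CPA4 was 7.24-fold higher in siVPS4A#1 than in siVPS4A#2 (log2 2.86, SE 0.27; limma adjusted p = 3.66e-11), in 3 of 3 shared replicates, and 16.0% of genes were called higher in that comparison. With the left-out library kept under its label the siVPS4A#1 mean became 113 ± 125 (SD, n = 5), its log2 difference from siVPS4A#2 3.498, and from siCTRL#2 0.66 (limma adjusted p = 0.178). CPA4 was 1.83-fold higher in siVPS4B#1 than in siVPS4B#2 (log2 0.87, SE 0.26; limma adjusted p = 0.0105), where 12.8% of genes were called higher. This call was lost without the replicate block (limma adjusted p = 0.0760), with the left-out library kept (0.118), without replicate 3 (0.0628), without siVPS4B#2 replicate 1 (0.0532) and without siVPS4B#1 replicate 3 (0.0714). In a 2-sided exact permutation test with 4 libraries a group the smallest possible p is 0.0286. This test ignored the replicate number, so its p includes the spread between replicate numbers that the limma fit removed. The 3 comparisons without overlap reached it, and adjusted over the 6 comparisons each had p = 0.0571 by the exact permutation test. The exact permutation p was 0.0571 for siVPS4B#1 against siCTRL#2 (adjusted 0.0857), 0.200 for siVPS4B#1 against siVPS4B#2 (adjusted 0.240) and 0.743 for siVPS4A#1 against siCTRL#2 (adjusted 0.743).

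**Figure D2:**
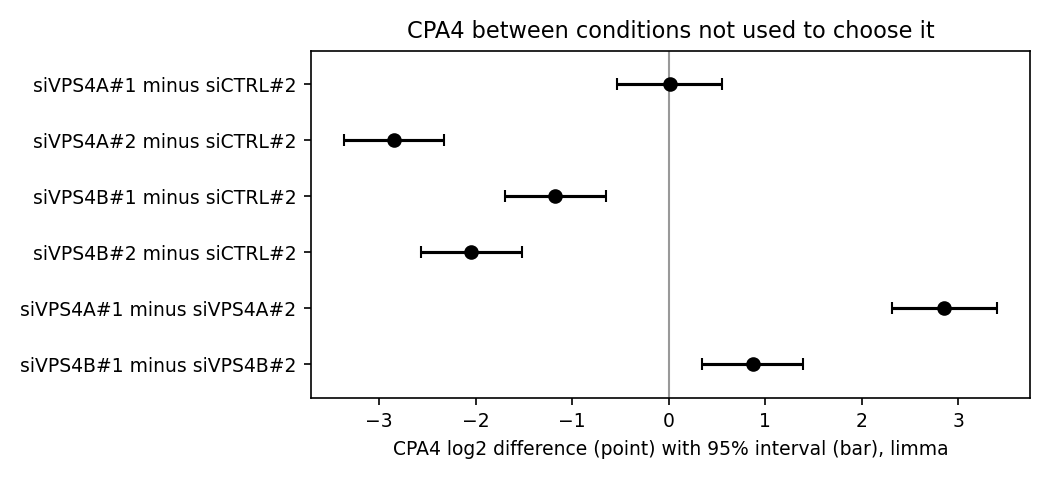
CPA4 log2 differences (points) with 95% intervals (bars) from limma, for the 6 comparisons among conditions that did not choose the gene. The interval for siVPS4A#1 minus siCTRL#2 spans 0, and the other 5 do not.

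Ordered by their medians, the conditions ran NT, siVPS4A#2, siCTRL#1, siVPS4B#2, siVPS4B#1, siCTRL#2, siVPS4A#1, siVPS4A+B#1 and siVPS4A+B#2. Of the 8 neighbouring pairs in this order, only siVPS4A#1 and siVPS4A+B#1 had ranges that did not overlap, with a highest value of 81.3 below a lowest value of 142.

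Single and combined silencing with the same duplexes are described side by side. In the first pair, siVPS4A+B#1 lay above siVPS4A#2 by 4.86 (SE 0.26) and above siVPS4B#1 by 3.19 (SE 0.26) on the log2 scale. In same-numbered replicates this was 20.3 to 59.1 times siVPS4A#2 and 5.73 to 13.7 times siVPS4B#1. In the second pair, siVPS4A+B#2 lay above siVPS4B#2 by 4.11 (SE 0.26) and above siVPS4A#1 by 2.05 (SE 0.27). The replicate ratios were 12.1 to 35.5 for siVPS4B#2 and 2.46 to 6.55 for siVPS4A#1, the latter over 3 replicates. Combined silencing was thus higher in every same-numbered replicate, and the smallest step was the one from siVPS4A#1.

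Relative to siCTRL#1, the log2 differences of the single duplexes were -0.14 (SE 0.25) for siVPS4A#2, 1.53 (SE 0.25) for siVPS4B#1, 2.72 (SE 0.25) for siVPS4A#1 and 0.66 (SE 0.25) for siVPS4B#2. The first combination exceeded the sum of its single differences by 3.33 (SE 0.36) and the second by 1.39 (SE 0.36). This excess depended on the control taken as baseline. With NT it was 2.67 (SE 0.36) and 0.72 (SE 0.37), and with siCTRL#2 6.04 (SE 0.36) and 4.10 (SE 0.37), alternatives chosen after the data were seen; siCTRL#1 is the siRNA that filled up the dose in single silencing. With the left-out library kept, the excess of the second combination over siCTRL#1 was 0.84, that over NT was 0.10, and its difference from siVPS4A#1 was 1.43. The sums of the single differences lay further apart than the combined means of 225 and 217, and siVPS4A#1 alone already stood high.

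**Figure D3:**
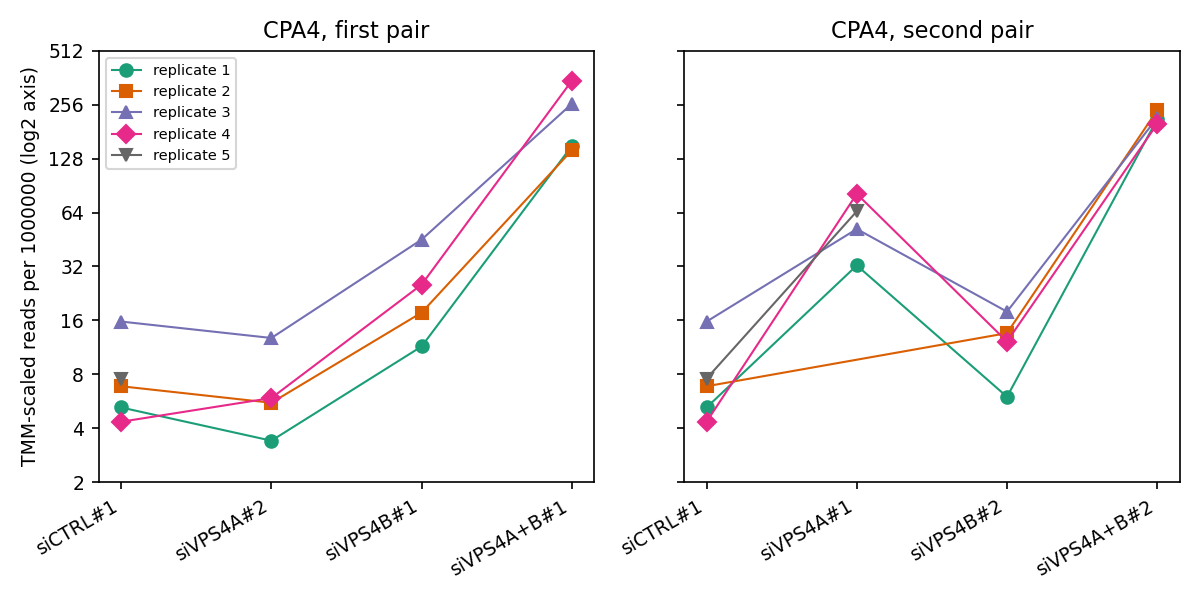
CPA4 per library, in TMM-scaled reads per 1000000 on a log2 axis, in siCTRL#1, in each single siRNA and in their combination, for the first pair (left) and the second (right); lines join libraries of the same replicate number, and replicate 2 has no siVPS4A#1 point. Both panels end between 142 and 348, but in the right one siVPS4A#1 alone already lies between 32.4 and 81.3.

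The other listed carboxypeptidases did not share the pattern of CPA4. Of the 9 genes of the A/B subfamily only CPA4 and CPO, an intestinal brush border enzyme, were listed, and CPO never exceeded 0.497 RPM, at or near the floor. Among the 8 genes of the N/E subfamily, which process hormones and growth factors or act at the cell surface, 6 were listed. By the rule of all 4 comparisons 0 of these were higher and 0 lower, beside 3.96% and 4.16% of all listed genes. With shares this small, few or none would be called among 6 genes. CPE, a prohormone-processing enzyme, stood at 115 ± 27.7 (SD, n = 5) in siCTRL#1, 81.8 ± 23.9 (SD, n = 4) in siVPS4A+B#1 and 72.0 ± 12.2 (SD, n = 4) in siVPS4A+B#2. CPD, a membrane enzyme of the trans-Golgi network, stood at 102 ± 15.4 (SD, n = 5), 108 ± 16.2 (SD, n = 4) and 78.0 ± 8.84 (SD, n = 4) in the same conditions. In NT, CPE stood at 85.5 ± 7.93 (SD, n = 4) and CPD at 75.1 ± 8.13 (SD, n = 4). From NT, CPE differed by -0.10 and -0.26 in the combinations (limma adjusted p = 0.645 and 0.179). The differences of CPD from NT were 0.51 and 0.05 (limma adjusted p = 0.00170 and 0.774). CPM, a cell-surface enzyme, was lower in siVPS4A+B#2 than in siCTRL#1 by 1.06 on the log2 scale (limma adjusted p = 6.89e-06), and its difference in siVPS4A+B#1 was 0.29 (limma adjusted p = 0.207). Against NT it was lower in siVPS4A+B#2 by 0.69 (limma adjusted p = 0.00221) and higher in siVPS4A+B#1 by 0.66 (limma adjusted p = 0.00405). CPN1, CPXM1 and CPXM2 reached at most 0.788, 1.52 and 1.07 RPM.

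Of the 6 cytosolic members, which remove residues from tubulin tails, 3 were listed. By the rule of all 4 comparisons 0 were higher and 1 lower, beside 3.96% and 4.16% of all listed genes. AGBL5, which takes the branch-point glutamate off tubulin, went from 9.95 ± 1.49 (SD, n = 5) in siCTRL#1 to 4.85 ± 1.53 (SD, n = 4) in siVPS4A+B#1 (log2 -0.89, SE 0.17; limma adjusted p = 9.08e-05) and 4.15 ± 0.331 (SD, n = 4) in siVPS4A+B#2 (log2 -1.03; limma adjusted p = 6.04e-06). The medians of the members' mean log2 difference over the 4 comparisons were -0.05 for the N/E subfamily and -0.22 for the cytosolic members, beside -0.03 for all listed genes. The inhibitors LXN (latexin) and RARRES1 are not among the listed genes and were not analysed here.

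CPA4 sits in a cluster of carboxypeptidase genes next to the imprinted gene MEST. Of 17 genes on the list of starts within 1000 kb of the CPA4 start, 12 were listed. By the rule of all 4 comparisons 0 were higher and 0 lower, beside 3.96% and 4.16% of all listed genes. With shares this small, few or none would be called among 12 genes. MEST, a hydrolase-fold gene 193 kb downstream, stood at 24.3 in siCTRL#1 and at 18.9 and 27.6 in the combinations (log2 -0.30 and 0.23; limma adjusted p = 0.105 and 0.212). Against NT, where MEST stood at 32.5, the differences were -0.75 in siVPS4A+B#1 (limma adjusted p = 0.000102) and -0.22 in siVPS4A+B#2 (limma adjusted p = 0.242). COPG2, a coat protein gene 213 kb downstream, differed by -0.14 and -0.15 (limma adjusted p = 0.547 and 0.479). CEP41, a centrosomal gene 101 kb downstream, fell against siCTRL#1 by 0.61 in siVPS4A+B#1 (SE 0.16; limma adjusted p = 0.00204) and by 0.63 in siVPS4A+B#2 (limma adjusted p = 0.00105). TMEM209, a nuclear envelope gene 128 kb upstream, fell by 0.58 (SE 0.14; limma adjusted p = 0.00151) and by 0.94 (limma adjusted p = 1.10e-06). The nearest listed genes on either side were thus lower, not higher, after combined silencing.

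UBE2H, a ubiquitin-conjugating enzyme gene 462 kb upstream, had the highest levels in siCTRL#2, at 211 ± 91.6 (SD, n = 4), and in siVPS4A+B#2, at 252 ± 24.5 (SD, n = 4), against 109 ± 7.29 (SD, n = 5) in siCTRL#1. It rose in siVPS4A+B#2 by 1.19 (SE 0.19; limma adjusted p = 2.09e-06), while its difference in siVPS4A+B#1 was 0.25 (SE 0.19; limma adjusted p = 0.320). Its correlation with CPA4 over the 37 libraries was r = 0.612. The median of the neighbours' mean log2 difference was -0.26, beside -0.03 for all listed genes.

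**Figure D4:**
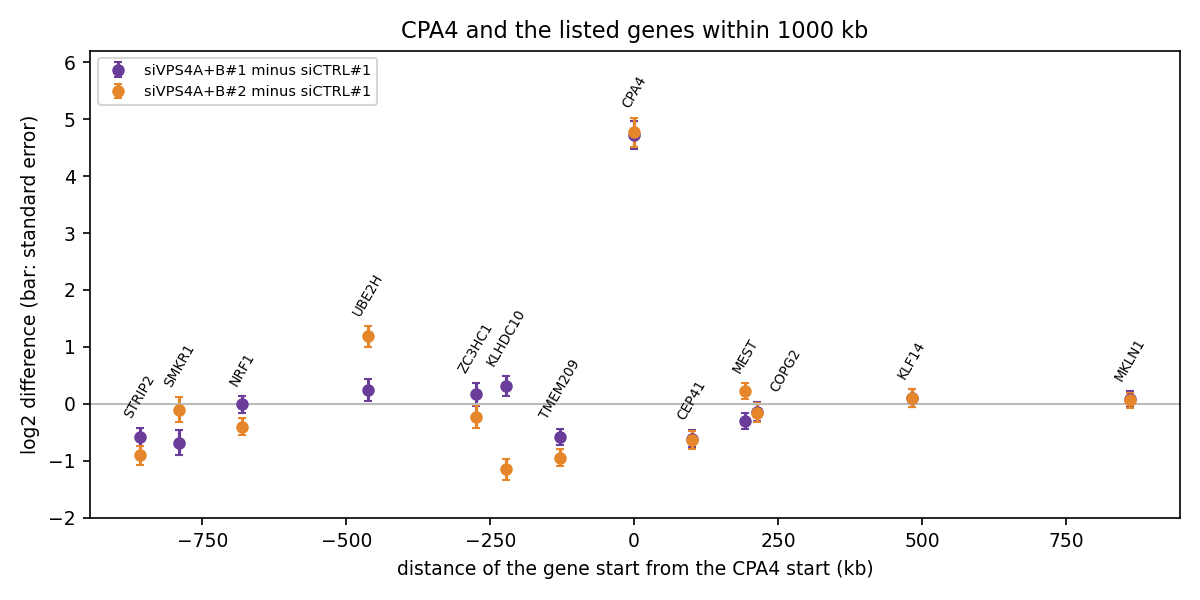
Log2 differences (bars: standard error) of siVPS4A+B#1 and siVPS4A+B#2 from siCTRL#1, for CPA4 and the 12 listed genes that start within 1000 kb, against the distance of each start from the CPA4 start in kb. CPA4 stands at 4.72 and 4.77, and no neighbour exceeds 1.19.

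CPA4 was found as a gene induced by histone deacetylase inhibitors, so the 11 histone deacetylases were listed with it. By the rule of all 4 comparisons 0 were higher and 2, HDAC1 and HDAC3, were lower, beside 3.96% and 4.16% of all listed genes. HDAC1, a nuclear class I enzyme, stood at 441 ± 97.7 (SD, n = 5) in siCTRL#1, 260 ± 52.2 (SD, n = 4) in siVPS4A+B#1 and 221 ± 53.2 (SD, n = 4) in siVPS4A+B#2, and at 180 ± 29.1 (SD, n = 4) in siCTRL#2. The differences of combined silencing from siCTRL#1 were -0.83 (SE 0.15; limma adjusted p = 1.78e-05) and -1.08 (limma adjusted p = 9.82e-08), and that of siCTRL#2 was -1.34 (limma adjusted p = 2.05e-09). HDAC1 thus had its 3 lowest means in conditions in which CPA4 was high. It was not alone in siCTRL#2. Against siCTRL#1, HDAC5, HDAC6 and HDAC10 also fell there, by 0.76, 1.04 and 1.15 (limma adjusted p = 2.16e-05, 5.86e-08 and 9.07e-06). HDAC4 rose there by 0.48 (limma adjusted p = 0.00202). A part of the deacetylases in the CPA4 values was not tested. In siVPS4A#1, where CPA4 was as high as in siCTRL#2, HDAC1 stood at 320 ± 55.3 (SD, n = 4). That was below its means in NT, siCTRL#1, siVPS4A#2, siVPS4B#1 and siVPS4B#2, which ran from 387 to 476. HDAC1 was lower in siVPS4A#1 than in siVPS4A#2 by 0.50 (limma adjusted p = 0.0111). It was higher in siVPS4A#1 than in siCTRL#2 by 0.90 (limma adjusted p = 9.46e-06). HDAC3, the class I enzyme of the NCoR complex, fell by 0.77 and 1.05 (limma adjusted p = 6.06e-06 and 8.67e-09), and its difference in siCTRL#2 was -0.28 (limma adjusted p = 0.0952). Its lowest mean was in siVPS4A#1, at 27.0 ± 4.84 (SD, n = 4), against 83.0 ± 15.8 (SD, n = 4) in siVPS4A#2 (log2 -1.57; limma adjusted p = 4.47e-12), and it was at 34.0 ± 5.48 (SD, n = 4) in siVPS4B#1. Other members went up. HDAC5, a class IIa enzyme, rose in each of the 4 comparisons by 0.42 to 0.67 (limma adjusted p from 0.000112 to 0.00997), short of 1.5-fold in 3 of them. HDAC10 rose in siVPS4A+B#2 against siCTRL#1 by 0.71 (limma adjusted p = 0.00221), and its difference in siVPS4A+B#1 was 0.12 (limma adjusted p = 0.665). HDAC9, at no more than 2.37 RPM in any library, rose in siVPS4A+B#2 by 0.85 (limma adjusted p = 0.000731), with 0.08 in siVPS4A+B#1 (limma adjusted p = 0.803). The correlation with CPA4 over the 37 libraries was r = -0.768 for HDAC1 and r = -0.728 for HDAC3. The median of the mean log2 difference over the 11 genes was -0.10, beside -0.03 for all listed genes.

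Genes whose log2 level, after removal of the replicate number, varied most like that of CPA4 were sought among 11077 genes with a mean of at least 10 reads. The measure was Pearson's r over the 37 libraries, which share conditions and batches, so it describes these libraries and is given without a test. The median r was -0.03, and 5 genes exceeded 0.9. The 10 most alike were DUSP16 (r = 0.941), TUBB2A (0.916), S100A16 (0.908), PSME4 (0.904), RAB11FIP5 (0.9004), EMP1 (0.893), PINK1 (0.893), BMERB1 (0.892), PELO (0.891) and DUSP5 (0.890). All 10 were higher in all 4 comparisons of combined silencing with NT and siCTRL#1, the contrasts that chose CPA4.

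DUSP16, a phosphatase of the stress-activated kinases JNK and p38, averaged 17.4 ± 4.69 (SD, n = 4) in NT, 17.8 ± 1.79 (SD, n = 5) in siCTRL#1 and 27.8 ± 2.49 (SD, n = 4) in siCTRL#2. It was at 27.1 ± 2.49 (SD, n = 4) in siVPS4A#1 and 18.3 ± 2.91 (SD, n = 4) in siVPS4A#2, and at 44.04 ± 7.90 (SD, n = 4) and 55.8 ± 8.23 (SD, n = 4) in the combinations. Its condition means ordered siCTRL#2 and siVPS4A#1 above the other single conditions, as those of CPA4 did, over a much smaller range. EMP1, a membrane protein of epithelial cells, averaged 57.0 ± 15.6 (SD, n = 5) in siCTRL#1, 104 ± 21.5 (SD, n = 4) in siCTRL#2, 121 ± 29.5 (SD, n = 4) in siVPS4A+B#1 and 343 ± 74.0 (SD, n = 4) in siVPS4A+B#2. DUSP5, a nuclear phosphatase of ERK, averaged 369 in siCTRL#1 and 1254 and 1484 in the combinations. The range of condition means, on the log2 scale, was 1.64 for DUSP16, 2.10 for TUBB2A, a beta-tubulin, 2.23 for S100A16, a calcium-binding protein, and 2.91 for EMP1, against 5.44 for CPA4. PSME4 encodes a proteasome activator, PINK1 a mitochondrial quality-control kinase, RAB11FIP5 a recycling endosome adaptor and PELO a ribosome rescue factor, and their ranges were 1.24, 1.498, 1.46 and 1.10.

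**Figure D5:**
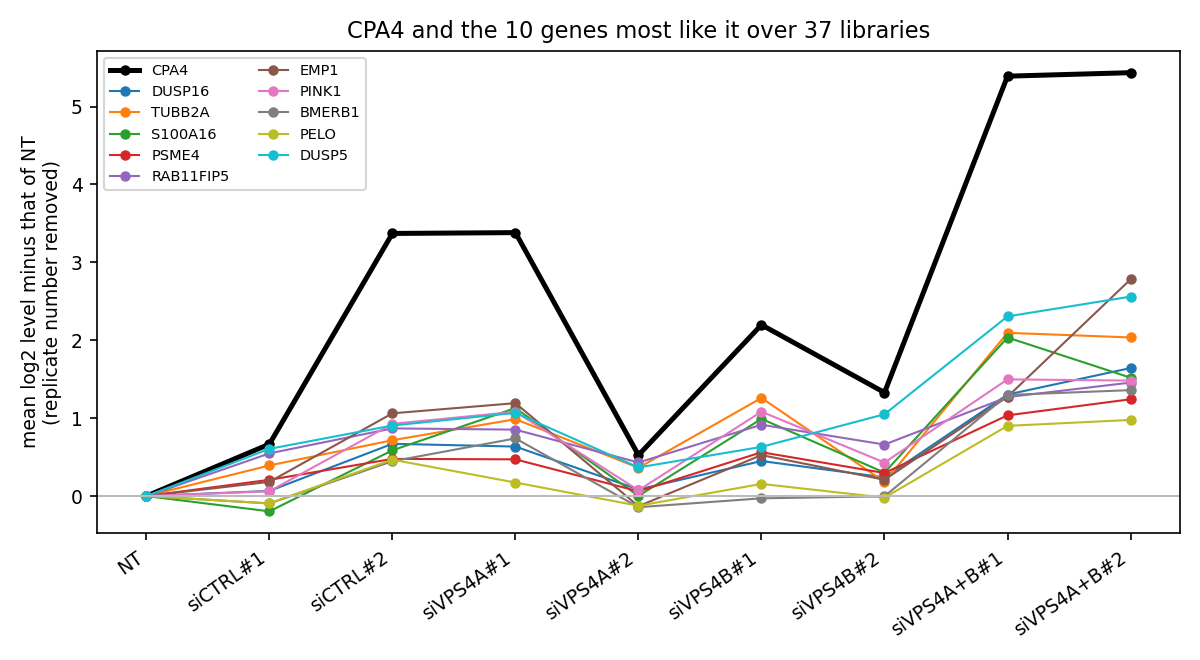
Mean log2 level in each condition minus that of NT, after removal of the replicate number, for CPA4 (thick line) and the 10 genes most like it over 37 libraries. All lie above 0 at the right, after combined silencing, and CPA4 has the widest range, up to 5.44.

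Of these 10 genes, 7 had an entry in the promoter table, and 1, EMP1, held the AP-1 motif, with 2 matches. Among the 500 genes higher in all 4 comparisons, 392 had an entry, and 5 of them, CPA4 included, held at least 2 matches (1.28%, beside 0.176% of the promoters of listed genes). The cut of 2 matches was that of CPA4, and the 500 genes come from the comparisons that chose CPA4. At least 1 AP-1 match was held by 7.91% of the 392, beside 3.85% of the promoters of listed genes. The NF-kB consensus was held by 10.7%, beside 8.11%. A part of either motif in these levels was not tested.

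The genes that varied most in the opposite direction were TESC (r = -0.926), IL17RB (-0.918), GLB1L2 (-0.918), PCDH7 (-0.884) and ADGRA2 (-0.882), and all 5 were lower in all 4 comparisons. TESC, a calcium-binding protein, averaged 67.2 ± 21.5 (SD, n = 5) in siCTRL#1, 41.7 ± 15.2 (SD, n = 4) in siCTRL#2, 24.9 ± 6.85 (SD, n = 4) in siVPS4A+B#1 and 18.0 ± 4.66 (SD, n = 4) in siVPS4A+B#2. PCDH7 encodes a protocadherin and ADGRA2 an adhesion G protein-coupled receptor. GLB1L2, a beta-galactosidase-like gene, averaged 55.2 in siCTRL#1, 21.4 in siCTRL#2 and 20.4 in siVPS4A#1, about its level of 22.2 and 17.9 in the combinations. IL17RB encodes a receptor subunit for interleukin 17 family cytokines, and it averaged 18.0 in siCTRL#1, 9.42 in siCTRL#2 and 6.33 and 5.66 in the combinations.

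Within conditions the likeness was weaker. After condition and replicate number were both removed, r of the 11077 genes with CPA4 ran from -0.705 to 0.692, nearly symmetric around a median of 0.00, with a 5th to 95th percentile range from -0.37 to 0.38. The highest were ESAM (r = 0.692), KRTAP2-3 (0.689), TENM3 (0.677), CCND1 (0.664) and PSMD11 (0.662), and the lowest CCSER1 (-0.705), SCUBE1 (-0.704) and PADI3 (-0.686). They are the extremes of 11077 values and were not tested. Several had few reads per library, with means of 25.0 for ESAM, 20.5 for TENM3, 40 for CCSER1 and 15.8 for PADI3. Of the genes with the highest within-condition r, KRTAP2-3, a hair keratin-associated protein, was also much like CPA4 across conditions (r = 0.885). Its range of condition means was 5.03 on the log2 scale. It averaged 13.3 in NT, 37.4 in siCTRL#1, 43.7 in siCTRL#2, 461 in siVPS4A+B#1 and 249 in siVPS4A+B#2. For DUSP16 the within-condition r was 0.374 and for PINK1 -0.151, so the likeness of PINK1 lay between conditions and not between their replicates.

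Markers of other cell types were read beside these values. All 6 epithelial markers were present, with a summed level from 4529 to 8578 RPM over the libraries, and CLDN4, a tight junction gene, was higher in all 4 comparisons. The other epithelial markers went in both directions. In siVPS4A+B#1, EPCAM fell against NT by 0.84 (limma adjusted p = 3.28e-07), CDH1 by 0.55 (limma adjusted p = 0.0123) and KRT18 by 0.49 (limma adjusted p = 0.00339). There KRT19 rose by 1.43 (limma adjusted p = 4.71e-10) and KRT8 by 0.41 (limma adjusted p = 0.0330). In siVPS4A+B#2, EPCAM fell against NT by 0.39 (limma adjusted p = 0.00747) and KRT19 rose by 0.72 (limma adjusted p = 0.000150). CDH1, KRT8 and KRT18 had limma adjusted p of 0.0573, 0.259 and 0.266 there. Against siCTRL#1 the difference of EPCAM in siVPS4A+B#1 was -0.02 (limma adjusted p = 0.898), that of CDH1 -0.34 (limma adjusted p = 0.119) and that of KRT18 -0.30 (limma adjusted p = 0.0678). KRT19 rose there by 1.03 (limma adjusted p = 4.41e-07), and KRT8 differed by -0.25 (limma adjusted p = 0.192). In siVPS4A+B#2 against siCTRL#1, EPCAM rose by 0.43 (limma adjusted p = 0.00252) and KRT8 fell by 0.44 (limma adjusted p = 0.0156). CDH1, KRT18 and KRT19 had limma adjusted p of 0.351, 0.999 and 0.0687 there. The median of the mean log2 difference over the 6 markers was -0.11, beside -0.03 for all listed genes. Of the leukocyte markers 1 of 3 was listed, CD68, which also marks lysosomes in other cells, and it rose from 8.33 ± 1.97 (SD, n = 5) in siCTRL#1 to 136 ± 35.7 (SD, n = 4) in siVPS4A+B#1 (log2 3.92; limma adjusted p = 6.33e-20) and 57.7 ± 25.4 (SD, n = 4) in siVPS4A+B#2 (log2 2.65; limma adjusted p = 1.25e-14). Over all libraries its level ran from 4.37 to 176, and its correlation with CPA4 was r = 0.792. Of the fibroblast markers 1 of 3 was listed, COL1A1, at 7.83 to 85.2 RPM. It rose from 26.0 ± 6.49 (SD, n = 5) in siCTRL#1 to 62.6 ± 15.6 (SD, n = 4) in siVPS4A+B#2 (log2 1.33; limma adjusted p = 2.86e-06) and stood at 32.8 ± 8.13 (SD, n = 4) in siVPS4A+B#1 (log2 0.42; limma adjusted p = 0.131). Against NT it rose by 1.34 and 2.25 in the combinations (limma adjusted p = 5.27e-06 and 6.50e-11). It was also higher in siVPS4A#1 than in siVPS4A#2 by 0.90 (limma adjusted p = 0.00226), and its correlation with CPA4 was r = 0.666. PECAM1, 1 of 3 endothelial markers, reached at most 1.75, and 0 of 4 pancreatic acinar markers were listed. The part of CD68 and COL1A1 in the CPA4 values was not tested.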

How the data were processed

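RNA of 38 HCT116 libraries was analysed. Per the paper's methods, the authors prepared libraries with the Ion AmpliSeq Transcriptome panel, which reads a short amplicon of each gene, sequenced them on an Ion Proton, aligned reads to the hg19 AmpliSeq transcripts with TMAP, obtained counts per transcript from HTSeq-count 0.6.0, and tested with DESeq2 1.18.1 with batch. The deposited signal of a gene is its fraction of the reads of that library over 12627 listed genes, and each library sums to 1. How counts became shares is not given in the sources used here. The study's own tests needed a minimum of 10 reads for a gene and its lists left out genes that code for no protein. Whether this chose the deposited genes is not stated, and every listed gene had 37 reads or more in total. Because an amplicon is read per gene, levels of different genes are not compared.

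The value worth 1 read was read off the low values of each library, which gave whole reads per gene. Of nonzero values, 50.4% are printed to within 0.1 read, and 100% of these were whole within 0.2 read. Of the identifiers, 12474 were given symbols. A level of 3 reads or fewer was taken as the floor, at most 0.589 reads per 1000000 in the 37 libraries used. Floors cover counting error only, because PCR copies are not separate molecules.

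Reads were scaled by TMM (edgeR 4.0.16) and log2(reads per 1000000 + 1) was fitted with limma 3.58.1 (R 4.3.3) with an intensity trend over all genes, with condition and replicate number as terms, and Benjamini-Hochberg adjustment. The replicate number is the batch in the labels, and it was kept as a block as in the study's methods. Deviations from condition means correlated on average by 0.187 over 137 same-numbered pairs and -0.082 over 529 others. Exact permutation tests (SciPy 1.17.1) were 2-sided and did not use the replicate number. Alternatives were other scaling, pseudocounts, filters, samples, edgeR and DESeq2 1.42.0 on recovered reads.

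CPA4 and all lists were chosen with earlier results of these data known. Genes were named by rule: the M14 carboxypeptidases, inhibitors, neighbours within 1000 kb, histone deacetylases, cell type markers, the 10 most and 5 least like CPA4, and 5 and 3 within conditions. Groups come from the labels of the samples, and the composition of the combinations from the study's methods.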

Additional observations from a re-analysis of the deposited data

Results flagged for a closer look

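CPA4 was 333 reads per 1000000 (206 reads) in the library labelled siVPS4A#1 replicate 2, which was left out of the reported comparisons except where it is said to be kept, above the highest of the NT and siCTRL#1 control libraries at 15.7. The library had VPS4A at 11.3 reads per 1000000 and VPS4B at 1 read, and 669257 reads in all.

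The effects of the 2 siRNAs against the same paralog differed by a test of the difference. For CPA4 this was 2.86 on the log2 scale between siVPS4A#1 and siVPS4A#2, and 0.87 between siVPS4B#1 and siVPS4B#2. The latter kept its direction and about its size, but its call was lost under several settings.

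AGBL5 had a siCTRL#2 library, replicate 3, at 7.91 reads per 1000000 that stood apart from the other 3 of that condition. Of 54 groups of libraries tested over 6 genes this was the 1 that did, and chance alone marks about 1 in 20.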

How the results depend on the processing

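Of 272 recomputed values, 249 kept their direction and call, with counts of genes within 1.5 times and differences within the replicate spread. Without the replicate block the difference between siVPS4B#1 and siVPS4B#2 stayed at 0.87, but its limma adjusted p was 0.0760; with the left-out library kept it was 0.87 (adjusted p 0.118). Over its other settings the adjusted p ran from 0.000943 to 0.118. Leaving out replicates or libraries in turn it ran from 0.69 to 1.04 (adjusted p from 0.00748 to 0.0714). The near-zero difference between siVPS4A#1 and siCTRL#2 ran from -0.20 to 0.24 in the same way and so changed sign, with no call. No other call of the 6 tests changed, with or without the replicate block.

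A pseudocount of 5 lowered the differences of combined silencing, as its construction implies for low control levels: to 4.15 and 4.19 against siCTRL#1, 4.57 and 4.61 against NT, 4.23 for siVPS4A+B#1 against siVPS4A#2 and 3.72 for siVPS4A+B#2 against siVPS4B#2. It left 271 genes lower in all 4 comparisons. By edgeR on recovered reads siVPS4A+B#2 exceeded NT by 5.80. Leaving out replicates in turn, siVPS4A+B#1 exceeded siCTRL#1 by 4.35 to 4.94, the lowest without replicate 4. With the left-out library kept, siVPS4A+B#2 exceeded siVPS4A#1 by 1.43. Scaling by library totals instead of TMM shifted the median of all genes by -0.17 between siVPS4A+B#1 and siCTRL#1, and CPA4 was then 4.55 above siCTRL#1 against a median of -0.16. Of the 10 genes most like CPA4, 6 were shared when ranked by Spearman's rho and 3 when ranked over the 9 condition means.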
